A study of Capra hircus with 9 samples.

Results

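A group of 9 predicted miRNAs of the goat mammary gland, with many reads in late lactation and few in the dry period and late gestation, was described. The members were selected on their counts in all 9 libraries, as predicted miRNAs high in late lactation (LL) and near the detection floor in the dry period (DP) and in late gestation (LG). They are 9 of the 1359 mature miRNAs in the count table, of which 436 were known and 923 were predicted from the reads. The rows NC_030828.1_27537 and NC_030828.1_27538 had nearly equal counts and were counted as 1, which left 8 distinct members. Small RNA was sequenced from mammary gland tissue of healthy Laoshan dairy goats of parity 3, with a mean age of 4 years, and each stage had 3 goats, with 1 library made from each. LL was sampled 240 days postpartum, DP 300 days postpartum and LG 140 days after mating, and the labels name no treatment other than the stage. The 3 stages came from different goats, so stage and goat cannot be separated within an animal.

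miRNAs are short RNAs cut from hairpin precursors by the nucleases Drosha and Dicer and loaded into Argonaute proteins, where bases near their 5′ end pair with target mRNAs. In the mammary gland, the miRNA pool is remade between milk secretion, involution and regrowth before the next birth. A predicted miRNA is a stretch of genome where stacked reads and a foldable hairpin look like such a precursor to a search program, and fragments of tRNAs, rRNAs, snoRNAs or mRNAs can meet the same criteria. The rows are named by the genome sequence on which the prediction lies and a running number, and carry no family name. No sequence or genome position of the members was used here, so whether they are miRNAs or fragments of other RNAs was not tested, and no target or role is given for any of them.

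The counts of a library summed to 16451436–24616668 in LL, 13672653–23392916 in DP and 21301913–34378995 in LG. A count of 3, close to the one-sided upper 95% limit for an observed count of 0, was taken as the floor. It corresponded to 0.0873–0.219 in plain CPM (counts scaled to a common library total). Levels are given as CPM after TMM scaling, which corrects library sizes for a few dominant miRNAs. The TMM factors were 0.745–0.920 in LL, 0.930–1.17 in DP and 1.15–1.28 in LG, so that the scaling raised LL levels and lowered LG levels relative to plain CPM. With library size only, the median log2 fold change of all tested miRNAs moved from −0.12 to −0.49 for LL vs. DP, from 0.17 to −0.42 for LL vs. LG and from 0.18 to −0.02 for DP vs. LG. In bulk tissue, fewer cells of a type and less RNA per cell cannot be told apart.

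The label of the group held only in part. Of the 54 member values in DP and LG libraries, 17 were at 3 counts or fewer and 7 of these were 0. NC_030819.1_17319 was at this floor in all 6 DP and LG libraries, NC_030812.1_7001 in 5, and NC_030833.1_31828, NC_030828.1_27537 and NC_030828.1_27538 in 2 each. NC_030809.1_1929, NC_030829.1_28533, NC_030825.1_22780 and NC_030826.1_24875 stayed above it in every library. LL held 93.1% to 97.8% of the summed stage means of 8 rows but 72.9% of that of NC_030826.1_24875. The group is therefore referred to below as predicted miRNAs high in LL. Among the 696 tested miRNAs, 10 had an LL share of 90% or more. All 10 were predicted and 8 of them were members, which follows from the choice of the members. The median share was 31.9% over all tested miRNAs.

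NC_030809.1_1929 was the most abundant member. It had 21798, 28749 and 13599 counts in LL replicates 1, 2 and 3, 577, 1051 and 307 in the DP libraries and 2733, 1104 and 2491 in the LG libraries. Its level was 1448 ± 625 CPM (SD, n = 3) in LL, 32.6 ± 17.7 CPM in DP and 64.6 ± 26.1 CPM in LG. Every LL library was thus far above the others, while DP and LG were low only relative to LL: among the 923 predicted rows it ranked 3 by mean level in LL, 34 in DP and 24 in LG. By the mean of the LL libraries, it held 11.8% of all counts on predicted miRNAs (6.29% to 15.3% by library). Of the members' counts there, with the pair counted once, it held 77.3% (64.8% to 84.1%). Both shares were lowest in LL replicate 3.

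NC_030833.1_31828 ranked 11 among predicted miRNAs in LL and 389 in DP. Its counts were 2211, 1679 and 2203 in LL, 10, 2 and 1 in DP, and 306, 88 and 137 in LG. The stages formed 3 separate levels with no overlap, at 134 ± 34.1 CPM in LL, 5.69 ± 4.16 CPM in LG and 0.254 ± 0.324 CPM in DP (SD, n = 3). The LL mean was 23.6 times that of LG and 528 times that of DP, the latter resting on 13 counts over the 3 DP libraries.

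The rows NC_030828.1_27537 and NC_030828.1_27538 carry neighbouring numbers on the same genome sequence. NC_030828.1_27537 had 916, 1902 and 2884 counts in LL, 84, 42 and 103 in DP, and 2, 0 and 80 in LG. NC_030828.1_27538 had 887, 1850 and 2837 counts in LL, 77, 38 and 95 in DP, and 2, 0 and 75 in LG. NC_030828.1_27537 was never the lower, and the counts differed by at most 52 in a library and by at most 9.52% of the larger count. No other row of the table came within 10%, or within 20%, of a member in every library. NC_030828.1_27537 reached 118 ± 42.5 CPM in LL and 3.90 ± 1.75 CPM in DP (SD, n = 3). In LG it was carried by 1 goat, LG replicate 3, at 1.81 CPM, with LG replicate 1 at 0.0686 CPM and LG replicate 2 at 0 counts. Whether the same reads were counted in both rows was not tested.

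NC_030829.1_28533 varied least of the members among the LL libraries. Its counts were 902, 1172 and 1528 in LL, 52, 36 and 51 in DP, and 59, 89 and 87 in LG. The LL libraries differed little after scaling (76.9 ± 5.87 CPM, SD, n = 3, a CV of 7.63%), and DP (2.38 ± 0.816 CPM) and LG (2.50 ± 0.876 CPM) lay 32.3 and 30.7 times lower by their means. NC_030825.1_22780 had the same shape at a lower level. It had 189, 313 and 299 counts in LL, 15, 7 and 9 in DP, and 28, 19 and 21 in LG, or 17.2 ± 3.07, 0.552 ± 0.339 and 0.729 ± 0.243 CPM (SD, n = 3).

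NC_030812.1_7001 and NC_030819.1_17319 were the members closest to absence outside LL. NC_030812.1_7001 had 65, 59 and 67 counts in LL, 0, 0 and 1 in DP, and 4, 1 and 3 in LG. NC_030819.1_17319 had 19, 27 and 18 counts in LL, 0, 1 and 0 in DP, and 1, 1 and 0 in LG. Their LL levels were 4.2 ± 0.79 and 1.42 ± 0.411 CPM (SD, n = 3). Because the other stages held so few counts, the pooled counts are compared with an exact 95% interval that covers counting error only: for NC_030812.1_7001 the LL rate was 250 times that of DP (44.2 to 9906) and 50.7 times that of LG (25.2 to 119). For NC_030819.1_17319 the ratio was 83.6 to DP (14.5 to 3353) and 68.0 to LG (18.1 to 574). The intervals give the precision of the counts only and test nothing, since the choice of these rows fixed that the ratios exceed 1. Both rows passed the filter on low counts (at least 0.5 CPM in at least 3 libraries) through their LL libraries alone.

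NC_030826.1_24875 had the smallest share of its level in LL. Its counts were 177, 344 and 420 in LL, 36, 92 and 153 in DP, and 70, 89 and 132 in LG. The level was 19.8 ± 5.09 CPM in LL, 4.39 ± 2.21 CPM in DP and 2.97 ± 0.557 CPM in LG (SD, n = 3), so that the LL mean was 4.51 and 6.66 times those of DP and LG. Its LL libraries still lay above all others, but the lowest of them was only 2.08 times the highest DP or LG library.

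**Figure D1:**
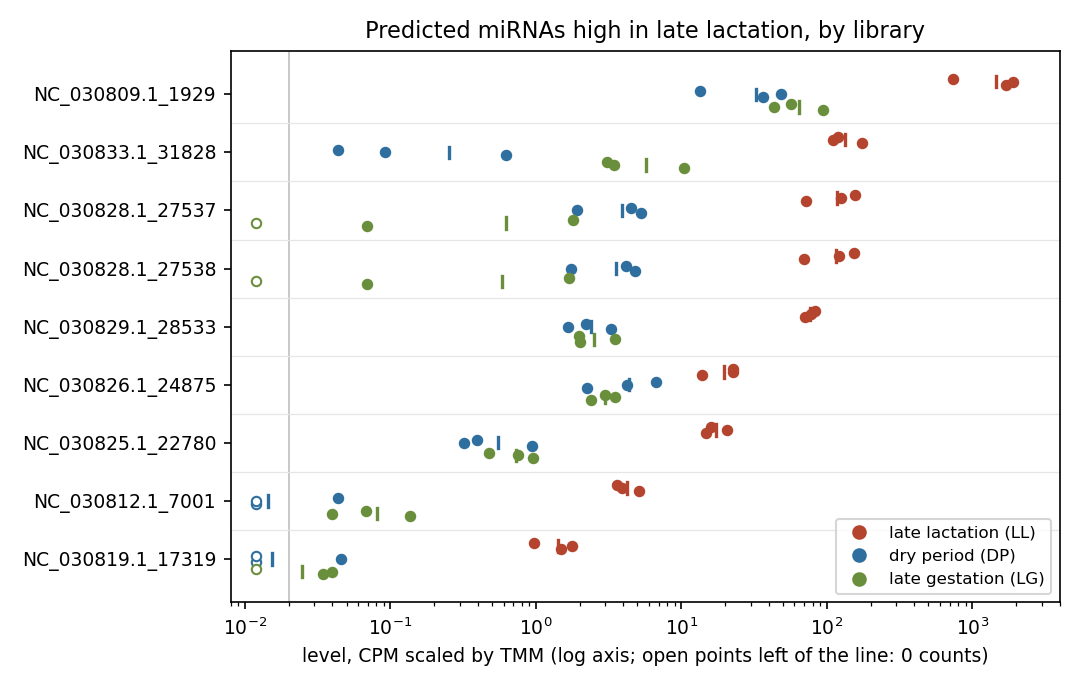
Level of each of the 9 predicted miRNAs high in LL in each of the 9 libraries, in CPM scaled by TMM on a log axis, with 1 point per library coloured by stage, short vertical bars at the stage means and libraries of 0 counts as open points left of the grey line. In every row the 3 LL points lie to the right of the 6 DP and LG points, and the gap is smallest for NC_030826.1_24875, where the lowest LL library is 2.08 times the highest other library.

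The distance between stages was measured as the lowest LL level over the highest DP or LG level, with levels under 3 counts set to 3 counts. It was 20.1 for NC_030829.1_28533, 19.2 for NC_030812.1_7001, 15.4 for NC_030825.1_22780, 14.4 and 13.6 for the near-equal pair, 10.6 for NC_030833.1_31828, 7.83 for NC_030809.1_1929 and 5.16 for NC_030819.1_17319. These 8 rows held the first 8 ranks among the 566 miRNAs with a mean LL level of at least 1 CPM, a pattern that the choice of the members fixes. With library size only, all 9 ratios were smaller, at 12.6 for NC_030829.1_28533, 12.4 for NC_030812.1_7001, 10.04 for NC_030825.1_22780, 9.21 and 8.71 for the pair, 7.44 for NC_030833.1_31828, 5.14 for NC_030809.1_1929, 3.33 for NC_030819.1_17319 and 1.52 for NC_030826.1_24875. Every LL library lay above every DP and LG library for all 9 members, and for 73 of the 696 tested miRNAs (10.5%).

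The values just outside the group were close to those of its lowest members. NC_030815.1_11506 had a ratio of 4.91, with 12, 14 and 22 counts in LL, none in DP and 2, 3 and 3 in LG. NC_030816.1_13534 had a ratio of 4.02, with 55, 79 and 69 counts in LL, 1, 0 and 1 in DP and 27, 1 and 10 in LG. NC_030816.1_13336 followed at 2.53, and 4 predicted rows that are no members ranked above NC_030826.1_24875. With library size only, 1 such row did, NC_030816.1_13534 at 2.64, while NC_030816.1_13336 was at 1.47 and NC_030815.1_11506 had a mean LL level under 1 CPM. The highest known miRNA was chi-miR-135a at 4.43 (2.86 with library size only), with 2396, 2511 and 1475 counts in LL, 286, 318 and 316 in DP, and 449, 361 and 355 in LG.

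**Figure D2:**
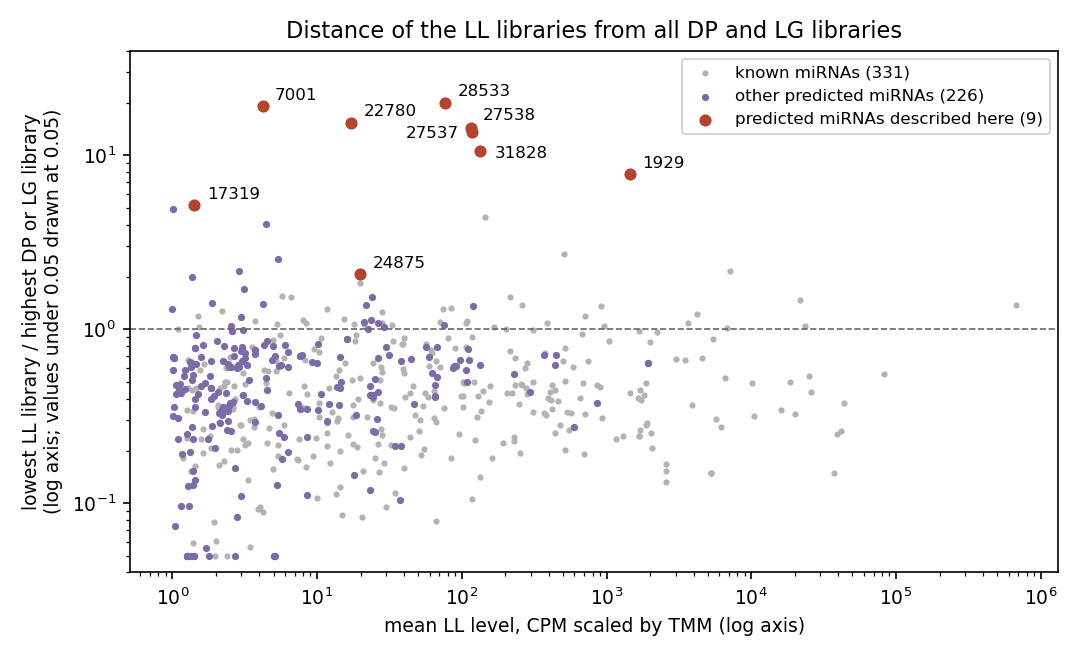
Ratio of the lowest LL library to the highest DP or LG library against the mean LL level, both on log axes, for the 566 miRNAs with a mean LL level of at least 1 CPM, with ratios under 0.05 drawn at 0.05. The members are labelled by the number in their names, and 8 of the 9 lie above all other miRNAs, between 5.16 and 20.1, whereas NC_030826.1_24875 lies at 2.08 among rows that are no members.

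The members made up a small part of the library but a visible part of the predicted miRNAs. With the pair counted once, they held 0.149% ± 0.0615 (SD, n = 3) of the counts of an LL library, 0.00454% of a DP library and 0.00923% of an LG library. Of the counts on predicted miRNAs alone, they held 14.8% ± 4.51 in LL (9.69% to 18.2% by library), 0.385% in DP and 0.717% in LG. All predicted miRNAs together took 0.879–1.14% of the library in LL, 1.04–1.35% in DP and 1.19–1.55% in LG, so that every LL library was below every LG library in this share.

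For LL vs. DP and LL vs. LG, the fold changes describe the values that chose the members and are given without a test. By edgeR's quasi-likelihood fit, the log2 fold changes of the 7 rows above the floor (6 distinct members) ranged from 2.17 (SE 0.42, NC_030826.1_24875) to 9.16 (SE 0.90, NC_030833.1_31828) for LL vs. DP, with a median of 5.003 over the 6 distinct members. For LL vs. LG they ranged from 2.73 (SE 0.43, NC_030826.1_24875) to 7.49 (SE 1.2, NC_030828.1_27538), with a median of 4.56 over the same 6. The near-equal pair was farther from LG (7.49 and 7.44) than from DP (5.01 and 4.92), and NC_030833.1_31828 was farther from DP (9.16) than from LG (4.56). The fit of the pair rested on LG replicate 3: without it, the log2 fold change of LL vs. LG was 11.18 for NC_030828.1_27538 and 11.22 for NC_030828.1_27537. These are no bounds, since 2 counts remained in LG, and the values were 6.84 and 6.79 without LG replicate 1 and 6.81 and 6.76 without LG replicate 2. Without DP replicate 1, LL vs. DP was 10.97 for NC_030833.1_31828 and 5.68 for NC_030825.1_22780 (4.99 with it), and without LG replicate 1, LL vs. LG was 5.19 for NC_030833.1_31828. Over all tested miRNAs, 11.6% were called higher in LL than in DP and 8.91% higher in LL than in LG as DE-miRNAs (an absolute log2 fold change over 1 with an adjusted p below 0.05), and the members' own calls are not counted because the choice of the members fixed them.

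The comparison of DP and LG is the one in which no member was required to differ, although the choice of rows low in both stages favours small differences. NC_030812.1_7001 and NC_030819.1_17319 were at or near the floor in both stages and passed the filter through LL alone, which left 6 distinct members with the pair counted once. Of these 6, 1 was a DE-miRNA by the quasi-likelihood test of edgeR, with p-values adjusted by Benjamini-Hochberg over the 696 tested miRNAs. Over all tested miRNAs the share was 31.5% in either direction, 21.6% higher in DP and 9.91% higher in LG, and because the members were chosen to be low in both stages, nothing is read from the count against these shares. The fitted level was higher in LG than in DP for 4 of the 6 and higher in DP for 2, with a median log2 fold change (DP vs. LG) of −0.25. The median was −0.11 over the 328 tested predicted miRNAs and 0.18 over all tested miRNAs. With library size only, the calls over all tested miRNAs were 116 higher in DP and 85 higher in LG, in place of 150 and 69.

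NC_030833.1_31828 was the row called, and was lower in DP than in LG. Its 10, 2 and 1 counts in DP against 306, 88 and 137 in LG gave a value of −4.60 on the log2 scale (SE 0.79, edgeR's adjusted p = 0.00148), and all 3 LG libraries lay above all 3 DP libraries. The value was −6.48 without DP replicate 1, the DP library with 10 of the 13 counts, and −3.995 without LG replicate 1, and the call held when each library was left out, with adjusted p up to 0.00697. For this member the order of stages was LL, LG, DP.

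For the near-equal pair the order was LL, DP, LG, but edgeR did not call DP and LG apart. On the log2 scale the difference was 2.52 (SE 1.01, edgeR's adjusted p = 0.0747) for NC_030828.1_27537 and 2.48 (SE 1.00, adjusted p = 0.0759) for NC_030828.1_27538. limma-voom called both rows in the same 9 libraries, at 4.24 and 4.15 (adjusted p = 0.0194 and 0.0205). With 1 library left out, edgeR's values ranged from 1.90 to 6.36 for NC_030828.1_27537 and from 1.86 to 6.23 for NC_030828.1_27538. edgeR's adjusted p reached up to 0.189 and 0.194. The call in edgeR also depended on LG replicate 3: without it, the fitted values were 6.36 and 6.23 (adjusted p = 0.00144 for both), which is no bound because 2 counts remained in LG. Over the other 2 LG libraries, the pooled rate in DP was 103 times that in LG for NC_030828.1_27537 (229 against 2 counts, exact 95% interval of counting error 28.2 to 855). The lowest DP library, at 1.93 CPM, lay just above LG replicate 3 at 1.81 CPM for this row, and with library size only LG replicate 3 was the higher, at 2.33 against 1.80 CPM.

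The other 4 rows above the floor were not called between DP and LG. NC_030809.1_1929 stood at −0.99 on the log2 scale (SE 0.49, edgeR's adjusted p = 0.148), and without a filter on low counts it was called (−1.40, adjusted p = 0.0438). With 1 library left out, it ranged from −1.60 to −0.80 and was not called (edgeR's adjusted p of 0.0517 or more). NC_030825.1_22780 stood at −0.42 (SE 0.46, edgeR's adjusted p = 0.545), and was called without DP replicate 1 (−1.19, adjusted p = 0.0484). The values were 0.57 (SE 0.41, edgeR's adjusted p = 0.325) for NC_030826.1_24875 and −0.07 (SE 0.34, adjusted p = 0.892) for NC_030829.1_28533, and each changed sign when 1 library was left out, to −0.07 without DP replicate 3 and to 0.10 without LG replicate 2. After TMM scaling, DP and LG overlapped for all 4 rows. With library size only they did not overlap for NC_030809.1_1929, at 13.7–44.9 CPM in DP and 51.8–107 CPM in LG. NC_030812.1_7001 and NC_030819.1_17319 were at or near the floor in both stages, where a difference was not detectable at this depth, and no fold is given.

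**Figure D3:**
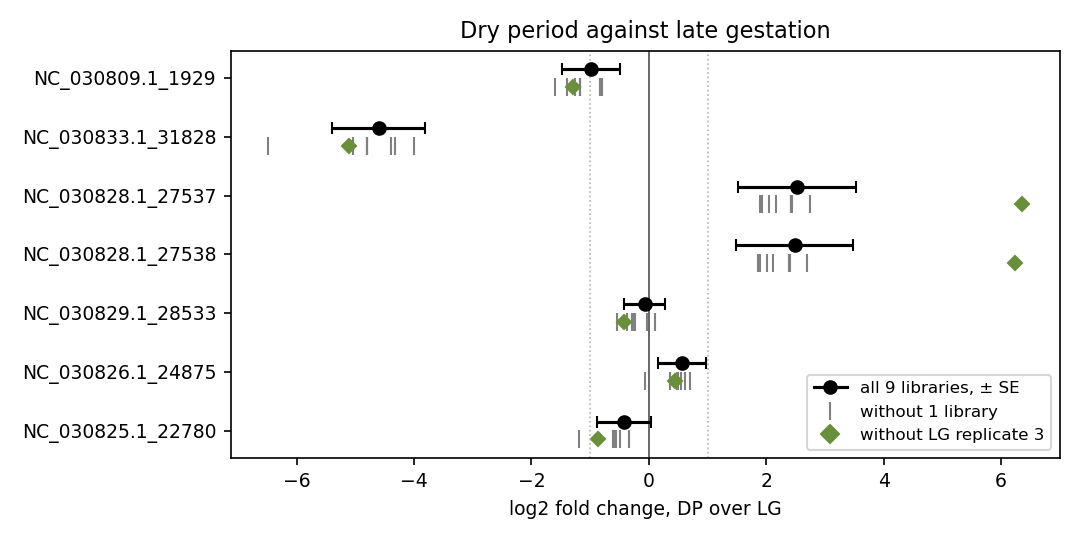
Log2 fold change of DP vs. LG with its standard error for the 7 member rows above the floor, from edgeR's quasi-likelihood fit of all 9 libraries, with positive values higher in DP, dotted lines at a log2 fold change of 1 in either direction, ticks for the fits without 1 library and diamonds for the fit without LG replicate 3. NC_030833.1_31828, at −4.60, is the row called, and the near-equal pair, at 2.52 and 2.48, has the widest errors of the 7 and moves to 6.36 and 6.23 without LG replicate 3.

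The members varied among the 3 LL goats about as much as other miRNAs. The CV of the LL levels had a median of 25.7% over the 9 rows and ranged from 7.63% for NC_030829.1_28533 to 43.2% for NC_030809.1_1929, with medians of 24.1% over all tested miRNAs, 30.1% over predicted and 19.1% over known ones. No goat was high throughout: of the 8 distinct members, the highest LL library was LL replicate 1 for 2, LL replicate 2 for 4 and LL replicate 3 for 2. NC_030809.1_1929 in LL replicate 3 was at 0.507 of its LL mean, and NC_030828.1_27537 in LL replicate 1 was at 0.611 of its own. These went in opposite directions in the same goats, since NC_030828.1_27537 was at 1.32 of its mean in LL replicate 3 and NC_030809.1_1929 at 1.18 in LL replicate 1.

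**Figure D4:**
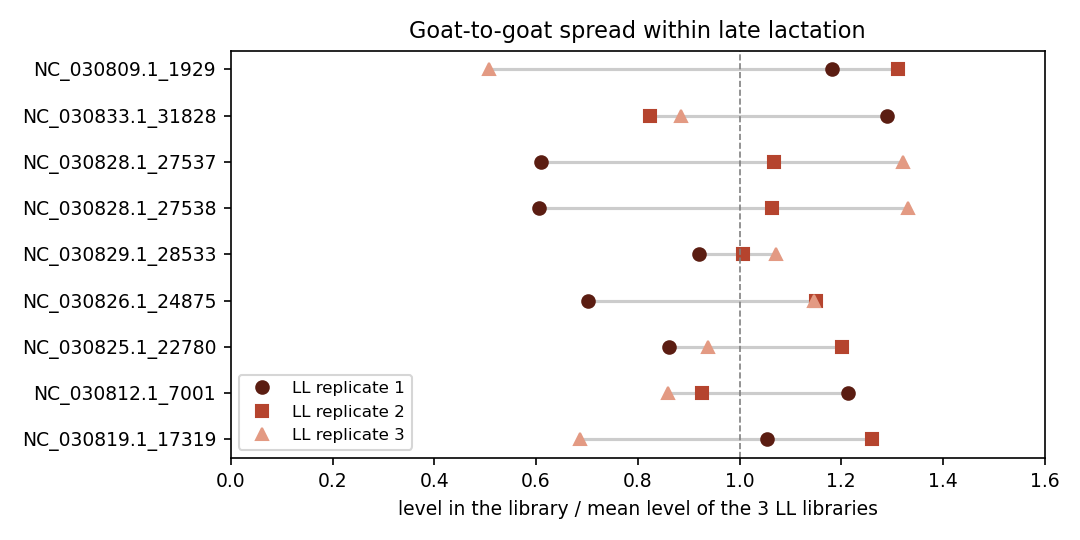
Level of each member in LL replicates 1, 2 and 3 relative to the member's own LL mean. The points of NC_030829.1_28533 lie closest to 1 (0.921 to 1.07), and the lowest points are those of NC_030809.1_1929 in LL replicate 3 (0.507) and of the near-equal pair in LL replicate 1 (0.605 and 0.611).

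The members lay on 8 genome sequences, and only the near-equal pair shared one. The rows listed next to them by number had mostly low counts: of 16 neighbouring rows that are no members, 10 had at most 20 counts in every library and 6 were tested. Of these 6, 1 was called higher in LL than in DP, NC_030809.1_1901 with a log2 fold change of 2.58, but its log2 fold change of LL vs. LG was 0.18. Also 1 of the 6 was called higher in LL than in LG, NC_030828.1_27534, the row below the pair, with 1.19. Unlike the pair, NC_030828.1_27534 had its highest mean level in DP, with 228, 316 and 309 counts in LL, 481, 1135 and 653 in DP, and 206, 190 and 429 in LG. Between DP and LG, it was called higher in DP (log2 fold change 2.19). NC_030809.1_1901 (−2.41) and NC_030826.1_24809 (−1.52) were called lower in DP, and the other tested neighbours were not called. NC_030812.1_6974, the row below NC_030812.1_7001, had 4, 8 and 9 counts in LL and none in the 6 other libraries. The numbers give the order of the rows, and distances in bases were not used here.

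Between pairs of distinct members, Pearson's r of log2 CPM (prior count 2) ranged from 0.554 to 0.987 over 28 pairs, with a median of 0.910. These values share the libraries and the stage contrast that chose the rows. The known miRNAs with the profile most like the members' mean profile were chi-miR-107-3p (r = 0.988), chi-miR-103-3p (r = 0.979), chi-miR-135a (r = 0.963), chi-let-7i-3p (r = 0.934) and chi-miR-423-5p (r = 0.917), over the same 9 libraries. Their steps were smaller than those of most members: chi-miR-107-3p was at 505 ± 51.9 CPM in LL, 150 ± 20.5 CPM in DP and 159 ± 4.87 CPM in LG (SD, n = 3), and chi-miR-423-5p at 923 ± 24.8, 496 ± 68.0 and 583 ± 99.5 CPM. chi-miR-135a came closest in size, at 145 ± 57.3 CPM in LL, 15.4 ± 2.21 CPM in DP and 12.6 ± 3.96 CPM in LG. chi-miR-103-3p and chi-miR-107-3p are near-identical paralogs, so that reads may have been shared between their rows. With library size only, 3 of these 5 known miRNAs remained among the first 5.

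Marker miRNAs of the cell types in the tissue moved with the stages as well, and their part in the members' levels was not tested. Of 40 listed names, 35 were in the table and none of these was at 0. The summed level of 8 of 8 epithelial miRNAs was 35325–43018 CPM in LL, 14060–22385 in DP and 34932–38642 in LG. Of these, 5 were called higher and 1 lower in LL than in DP by edgeR, and none was called between LL and LG. The list did not move as one, since the mean levels of chi-miR-182, chi-miR-183 and chi-miR-96 were higher in DP (901, 365 and 143 CPM) than in LL (552, 161 and 95.5 CPM). The sum of 6 of 8 miRNAs of secretory lactation was 548140–824434, 94140–104195 and 357289–435478 CPM in LL, DP and LG, most of it chi-miR-148a-3p, so that the stages did not overlap. All 6 were called higher in LL than in DP and 2 lower in LL than in LG, and chi-miR-30a-5p had a mean of 19967 CPM in LL and 46846 CPM in LG. The sum of 6 of 6 stromal miRNAs was 77807–125765, 47563–152684 and 57452–65618 CPM, most of it chi-miR-143-3p. Of the 6, 4 were called lower in LL than in DP, with a median log2 fold change of −1.37, among them chi-miR-199a-3p (means of 5274 and 19786 CPM) and chi-miR-214-3p (66.8 and 451 CPM), whereas the mean levels of chi-miR-143-3p (82771 and 61292 CPM) and chi-miR-145-5p (5447 and 3333 CPM) were higher in LL. The sums in LL, DP and LG were 15852–22980, 19028–31975 and 14716–16363 CPM for 2 of 2 endothelial miRNAs, and 720–932, 971–3444 and 419–530 CPM for 5 of 5 muscle miRNAs. They were 921–1339, 1254–2431 and 410–640 CPM for 5 of 7 immune cell miRNAs, of which 3 were called higher in LL than in LG, and 364–551, 122–1284 and 87.1–168 CPM for 3 of 4 red blood cell miRNAs. Between DP and LG, in which the members were tested, 5 of 5 immune cell miRNAs (median log2 fold change 2.09), 4 of 6 stromal, 2 of 5 muscle, 1 of 3 red blood cell and 1 of 2 endothelial miRNAs were called higher in DP by edgeR, and 4 of 6 secretory and 3 of 8 epithelial miRNAs were called lower.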

How the data were processed

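Small RNA libraries of 3 goats per stage were used, with stages as the labels and the study's methods give them. Other stages of the study were not analysed here. The deposited values are raw counts of reads per mature miRNA. Per the study's methods, the authors trimmed reads with Trimmomatic, mapped them and predicted miRNAs with miRDeep2 on genome build ARS1.2, and counted on known (miRBase) and predicted miRNAs together; the submitters' processing notes name FastQC 0.11.9, cutadapt 4.2 and Bowtie 1.1.1. The column of LL replicate 3 was treated as estimated counts, because the deposited file held 2 miRNAs at 209.5, and these were rounded.

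The members, lists and tests were chosen with earlier results of these data known. edgeR 4.0.16 in R 4.3.3 (glmQLFit, glmQLFTest) fitted the 9 libraries together, with stage as its single term, TMM scaling and miRNAs of at least 0.5 CPM in at least 3 libraries. A DE-miRNA was called at an absolute log2 fold change over 1 with a p, adjusted by Benjamini-Hochberg, below 0.05. The SE was the absolute log2 fold change over the square root of F. No molecular identifiers were used, so reads are not independent molecules, and intervals and floors (3 counts) hold for counting error alone. The other miRNAs named were the nearest rows by number, rows with counts within 10% of a member's, the 3 predicted rows just outside, the 5 known miRNAs most correlated with the members and the members of the marker lists; chi-miR-135a, as the highest known miRNA by the ratio of LL to the other stages, was singled out after its values were seen. The scripts were tested on simulated data. The alternatives comprised other scalings and filters, limma-voom (limma 3.58.1), DESeq2 1.42.0, fits of only the 2 stages compared, the omission of single libraries and a replicate block.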

Additional observations from a re-analysis of the deposited data

How the results depend on the processing

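In LL vs. DP and LL vs. LG, 133 of 133 fold changes of the 7 member rows above the floor kept their direction and their call in each comparison, although both were fixed by the choice of members. In DP vs. LG, 122 of 133 did. No fold change of NC_030812.1_7001 or NC_030819.1_17319 entered these counts. Among the 7 member rows above the floor, the number called in DP vs. LG was 1. It became 2 without a filter on low counts, 3 with limma-voom and 4 with a replicate block. In these fits, 16.3%, 30.2% and 31.9% of all tested miRNAs were called. Leaving out 1 library gave 1 to 3, with 2 without DP replicate 1 (36.1% of all) and 3 without LG replicate 3 (22.2% of all). The near-equal pair counts as 2 rows in these numbers, and nothing is read from them against the shares. The rows gained were NC_030828.1_27537 and NC_030828.1_27538 with limma-voom (4.24 and 4.15, adjusted p = 0.0194 and 0.0205), the same rows and NC_030809.1_1929 with the replicate block (3.25, 3.19 and −1.16, adjusted p = 0.0282, 0.0288 and 0.0429). In LL vs. LG, the pair stood at 9.22 for both rows with limma-voom, 8.20 and 8.23 with the replicate block and 6.81 and 6.86 with library size only. Under the omission of 1 library, NC_030826.1_24875 ranged from −0.074 (without DP replicate 3) to 0.69 and NC_030829.1_28533 from −0.54 to 0.10 (without LG replicate 2). The cause of these changes was not tested.

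Over all tested miRNAs, 186, 89 and 219 were called in LL vs. DP, LL vs. LG and DP vs. LG. The second count was 141 with only the 2 stages compared, and 33 (without LL replicate 1) to 125 (without DP replicate 1) with 1 library left out, with 36 when LL replicate 2, 54 when LG replicate 1 and 41 when LG replicate 3 was omitted. Leaving out 1 library gave 124 to 192 calls in LL vs. DP and 152 to 248 in DP vs. LG. The split into higher and lower calls moved with the scaling: in LL vs. DP from 81 and 105 to 59 and 165 with library size only and to 95 and 81 with chi-miR-148a-3p left out, in LL vs. LG from 62 and 27 to 30 and 90 and to 48 and 43, and in DP vs. LG from 150 and 69 to 116 and 85 and to 113 and 100. The replicate numbers did not pair the goats (correlations of same-numbered libraries −0.101 to 0.214, 3 of 9 over 0.1), and the replicate block gave 170, 88 and 222 calls. When an LL library was left out, NC_030812.1_7001 and NC_030819.1_17319 no longer passed the filter. With 3 goats per stage, the groups are too small to test for a single outlying goat, and levels under 3 counts are limited by depth.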
